A study of Mus musculus with 8 samples.

Results

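Kinesins are the motor proteins that walk along microtubules or take their ends apart. Their transcripts were measured here in irradiated mouse Lewis lung carcinoma cells. Members were the genes whose symbol in the array design matches the kinesin family pattern Kif followed by a digit or C, with upper and lower case read alike. There were 40 such genes, measured by 85 probes. A gene was tested when at least 1 of its probes was brighter than the negative control spots in the untreated or the irradiated channel on at least 2 of the 8 arrays. This held for 34 kinesin genes of the 13411 genes tested in all. They were divided by known function into 13 mitotic kinesins, of 14 on the array, 13 transport kinesins, of 15, and 8 other kinesins, of 11. Kif2b (mitotic), Kif1a and Kif5a (transport) and Kif6, Kif9 and Kif27 (other) did not pass the filter and have no value here.

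In dividing cells a set of kinesins builds the spindle, moves chromosomes and carries out cytokinesis. Most of these motors are made mainly from G2 to mitosis and removed as cells leave mitosis. Transport kinesins instead carry vesicles, organelles and RNA along the microtubules of interphase cells and of cilia, using light chains or adaptor proteins to hold the cargo. Cells with damaged DNA can stop before mitosis, which is why the transcripts of mitotic motors are a common readout after ionizing radiation.

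The cells were LLC1, a line from a lung cancer of a C57BL/6 mouse, grown in culture. RNA was taken 4 h after X-rays, given once at 2 Gy (3 arrays), once at 10 Gy (2 arrays) or as 5 fractions of 2 Gy (3 arrays, here 5x2 Gy), and the labels count the replicates as biological. Each array was read in 2 colours and held untreated cells in the Cy3 channel and irradiated cells in the Cy5 channel, with no dye swap, so a dye effect and an effect of irradiation cannot be told apart in a comparison with untreated cells. The labels number 3 replicates at 10 Gy, and the third was not analysed here.

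Values below are log2 ratios of irradiated over untreated signal, in which 0 is equality and 1 is a doubling, and levels are not compared between genes. Of the epithelial markers, Krt8, Krt18 and Krt19 were above background in the untreated cells of all 8 arrays, Cldn4 on 4, and Epcam and Cdh1 on none. The mesenchymal markers Vim, Fn1 and Cdh2 were above background on all 8. Of the fibroblast markers, Col3a1 was above background on all 8, Col1a1 on 7 and Pdgfrb on none. Of the leukocyte markers, Ptprc, Adgre1 and Csf1r were above background on no array, and Cd68 and Cd3e were above it on all 8; Cd68, which also lies in lysosomes, had a mean log2 ratio of 1.22 at 10 Gy. The endothelial markers Pecam1 and Kdr were above background on no array, and Cdh5 was above it on 3.

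By the image names in the file headers, all 2 Gy arrays shared slide 1 with replicate 1 of 10 Gy, while all 5x2 Gy arrays shared slide 2 with replicate 2 of 10 Gy. Over all genes tested, the 2 arrays of 10 Gy correlated with each other at 0.427, against 0.651 to 0.813 among the 2 Gy arrays and 0.829 to 0.886 among the 5x2 Gy arrays. Replicate 2 of 10 Gy correlated at 0.748 to 0.854 with the 5x2 Gy arrays of its own slide. Replicate 1 of 10 Gy had the widest spread of ratios, with an SD of 0.653 over the probes above background, against 0.320 to 0.454 on the other 7 arrays. The 10 Gy ratios of the tested kinesins are therefore given for both arrays. Those of other genes and of further probes are given mostly as means, which can hide a wide gap between the 2 arrays. The part of the slide in the 10 Gy results was not tested beyond the values given beside them.

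Single 10 Gy against untreated cells gave the widest changes of kinesin transcripts. Of the 13 mitotic kinesins, 8 fell and 3 rose (limma, Benjamini-Hochberg adjusted p under 0.05 over all 13411 genes), where 15.8% of all genes tested fell and 12.4% rose. The median log2 ratio of the 13 was -0.88, against -0.06 over all genes tested. By contrast 1 of 13 transport kinesins and 1 of 8 other kinesins fell, none of either group rose, and their medians were 0.02 and -0.05. Fewer cells in mitosis and less transcript per cell cannot be told apart in RNA from whole cultures.

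**Figure D1:**
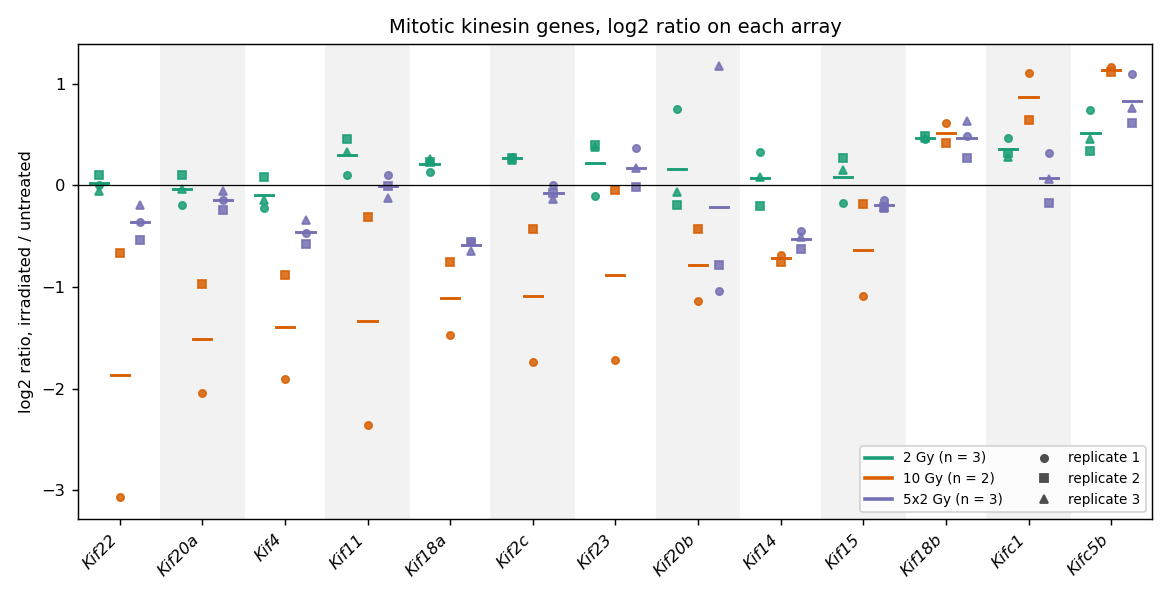
Log2 ratio of irradiated over untreated signal (vertical axis) for the 13 mitotic kinesins tested, ordered by their 10 Gy mean. Each point is 1 array, coloured by regimen and shaped by replicate number, and each short line is the regimen mean. The 10 Gy points of 10 genes lie below 0 on both arrays, from -3.07 for Kif22 to -0.05 for Kif23, and those of Kif18b, Kifc1 and Kifc5b lie above 0.

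The motors that hold the spindle apart and move chromosomes fell at 10 Gy. Kif22, a chromokinesin that pushes chromosome arms away from the poles, had log2 ratios of 0.00, 0.10 and -0.05 at 2 Gy, -3.07 and -0.67 at 10 Gy, and -0.36, -0.54 and -0.19 at 5x2 Gy. Both 10 Gy arrays were below all other arrays, and they lay far apart. The mean at 10 Gy was -1.87 ± 0.40 (SE; limma adjusted p = 0.00873), the lowest of the 34 kinesins. The SEs and limma p-values given here rest on a variance pooled over all regimens. At 10 Gy they therefore draw on the closer arrays of the other regimens and do not measure the gap between the 2 arrays of 10 Gy. Kif11, the bipolar motor that slides antiparallel microtubules and keeps the poles apart, had 0.10, 0.46 and 0.33 at 2 Gy, -2.35 and -0.32 at 10 Gy, and 0.10, -0.00 and -0.13 at 5x2 Gy. Its fall at 10 Gy was -1.33 ± 0.35 (SE; limma adjusted p = 0.0200), and the lower ratio was again on replicate 1. The irradiated signal of Kif11 was above background on only 1 of the 2 arrays of 10 Gy. Kif15, which can share the work of Kif11, had -0.17, 0.27 and 0.15 at 2 Gy, -1.08 and -0.18 at 10 Gy, and -0.15, -0.21 and -0.22 at 5x2 Gy. The 10 Gy and 5x2 Gy arrays of Kif15 overlapped, and its fall of -0.63 ± 0.19 (SE; limma adjusted p = 0.0338) was called under 8 of 17 other settings.

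The chromokinesin Kif4, which also works at the central spindle with Prc1, had -0.22, 0.08 and -0.15 at 2 Gy, -1.90 and -0.88 at 10 Gy, and -0.47, -0.58 and -0.34 at 5x2 Gy. The 3 regimens did not overlap, in the order 2 Gy, 5x2 Gy and 10 Gy from high to low. Kif4 was -1.39 ± 0.20 at 10 Gy (SE; limma adjusted p = 0.00133). Kif18a, which damps chromosome movements at the metaphase plate, had 0.13, 0.23 and 0.26 at 2 Gy, -1.47 and -0.75 at 10 Gy, and -0.55, -0.56 and -0.64 at 5x2 Gy. Its regimens were separate in the same order, and its fall at 10 Gy had a limma adjusted p of 0.00110. Because the irradiated signal of Kif18a was not above background on either 10 Gy array, the fold is a bound: it was at least 1.58-fold lower, from the lowest signal well above background on each array, where the measured mean log2 ratio was -1.11. Kif2c, a motor at centromeres that takes microtubule ends apart, had 0.28, 0.27 and 0.25 at 2 Gy, -1.74 and -0.43 at 10 Gy, and 0.00, -0.08 and -0.14 at 5x2 Gy. It fell by 1.08 ± 0.23 on the log2 scale at 10 Gy (SE; limma adjusted p = 0.00863). The irradiated signal of Kif2c was above background on only 1 of the 2 arrays of 10 Gy.

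The motors of the central spindle and of cytokinesis were lower at 10 Gy too, with 2 of the 4 past the test. Kif20a, which brings the chromosomal passenger complex to the central spindle, had -0.19, 0.10 and -0.03 at 2 Gy, -2.04 and -0.97 at 10 Gy, and -0.14, -0.24 and -0.06 at 5x2 Gy. It was -1.51 ± 0.21 at 10 Gy (SE; limma adjusted p = 0.00104), with both arrays below all others. Kif14, a motor that binds citron kinase at the midbody, had 0.33, -0.20 and 0.08 at 2 Gy, -0.68 and -0.75 at 10 Gy, and -0.45, -0.63 and -0.50 at 5x2 Gy. It was the one mitotic kinesin that fell by nearly the same amount on both 10 Gy arrays, with a limma adjusted p of 0.00432. Its irradiated signal was not above background on either of them, which leaves a bound of at least 1.29-fold lower beside a measured mean of -0.72.

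Kif23, the motor of the centralspindlin complex, had -0.11, 0.40 and 0.38 at 2 Gy, -1.72 and -0.05 at 10 Gy, and 0.37, -0.02 and 0.17 at 5x2 Gy. Replicate 2 of 10 Gy lay among the other arrays, and the mean of -0.88 ± 0.31 (SE) missed the threshold at a limma adjusted p of 0.0572. Kif20b, another cytokinesis motor, had 0.75, -0.19 and -0.06 at 2 Gy, -1.14 and -0.43 at 10 Gy, and -1.04, -0.78 and 1.18 at 5x2 Gy. Its arrays scattered more than any difference between regimens, and no comparison of Kif20b was called (at 10 Gy, limma adjusted p = 0.218). The irradiated signal of Kif20b was above background on neither 10 Gy array.

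The 3 mitotic kinesins that rose at 10 Gy were Kif18b, which shortens astral microtubules, and the minus-end directed pair Kifc1 and Kifc5b. Kifc1 bundles spindle microtubules and draws extra centrosomes together. Kifc5b is a near-identical copy of Kifc1, so a probe of either gene may also bind transcript of the other, and the values of the pair are uncertain as to gene. Kifc1 had 0.46, 0.32 and 0.28 at 2 Gy, 1.10 and 0.64 at 10 Gy, and 0.31, -0.17 and 0.06 at 5x2 Gy. Both 10 Gy arrays were above all others, with a mean of 0.87 ± 0.15 (SE; limma adjusted p = 0.00290). Kifc5b had 0.74, 0.34 and 0.45 at 2 Gy, 1.16 and 1.11 at 10 Gy, and 1.09, 0.62 and 0.76 at 5x2 Gy. It was above 0 on all 8 arrays and rose in all 3 regimens, by 1.13 ± 0.14 at 10 Gy (SE; limma adjusted p = 0.000764). Kif18b had 0.45, 0.49 and 0.47 at 2 Gy, 0.61 and 0.42 at 10 Gy, and 0.48, 0.27 and 0.64 at 5x2 Gy, with regimens that overlapped throughout. It too rose in all 3 regimens, by 0.51 ± 0.12 at 10 Gy (SE; limma adjusted p = 0.0112).

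**Figure D2:**
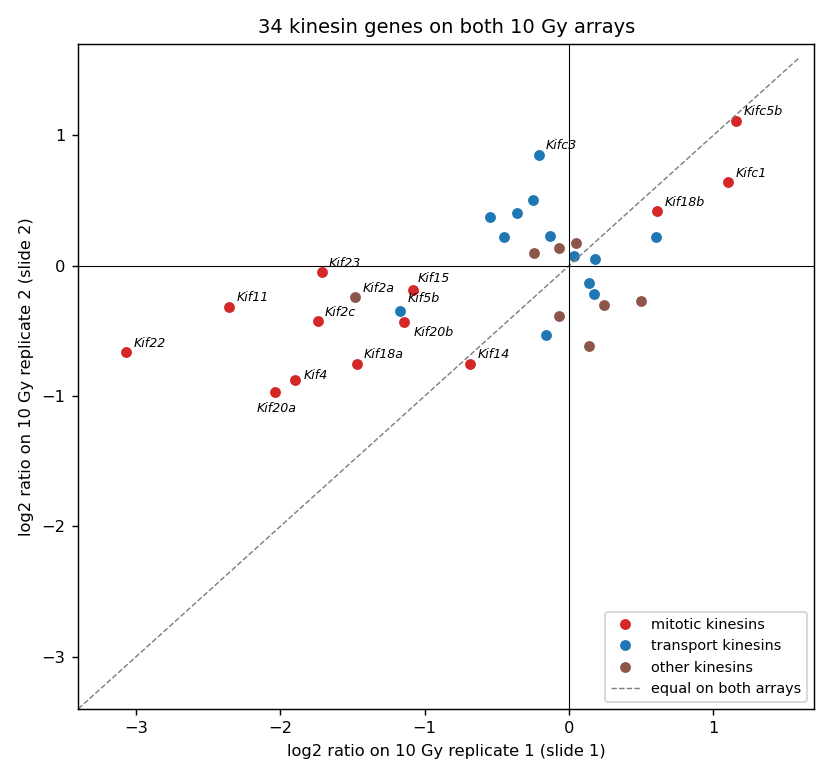
Log2 ratio of the 34 kinesin genes on 10 Gy replicate 1 (horizontal axis, slide 1) and 10 Gy replicate 2 (vertical axis, slide 2), coloured by role, with a dashed line of equality. Of the 13 mitotic kinesins, 10 lie below 0 on both arrays, most of them further from 0 on replicate 1, and 3 lie above 0 on both.

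Both 10 Gy arrays showed the 10 lower and 3 higher mitotic kinesins on the same side of 0, with medians of -1.47 on replicate 1 and -0.43 on replicate 2. Over all genes tested, 33.5% were below 0 and 27% above 0 on both 10 Gy arrays. Without replicate 1 the median of the mitotic kinesins was -0.43, and without replicate 2 it was -1.47. Counts of calls are not given here for these fits, in which the lone 10 Gy array was assumed to vary like the other groups. With the 2 arrays of 10 Gy fitted alone, 3 mitotic kinesins fell and none rose, where 127 of all genes tested fell and 173 rose. With slide as a random block 6 fell and 2 rose, where 779 of all genes tested fell and 685 rose. The falls of Kif20a, Kif22 and Kif4 were called under all 17 other settings tried. Centring arrays on their median in place of loess turned the calls over all genes at 10 Gy from 1664 higher and 2121 lower to 2294 higher and 1619 lower, with the mitotic kinesins still at 3 rises and 8 falls.

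The median of the mitotic kinesins minus that of the transport kinesins was 0.16, 0.14 and 0.27 on the 2 Gy arrays, -1.31 and -0.65 on the 10 Gy arrays, and -0.26, -0.32 and -0.22 on the 5x2 Gy arrays. The 3 regimens did not overlap in this difference, which is a description over members chosen by function.

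**Figure D3:**
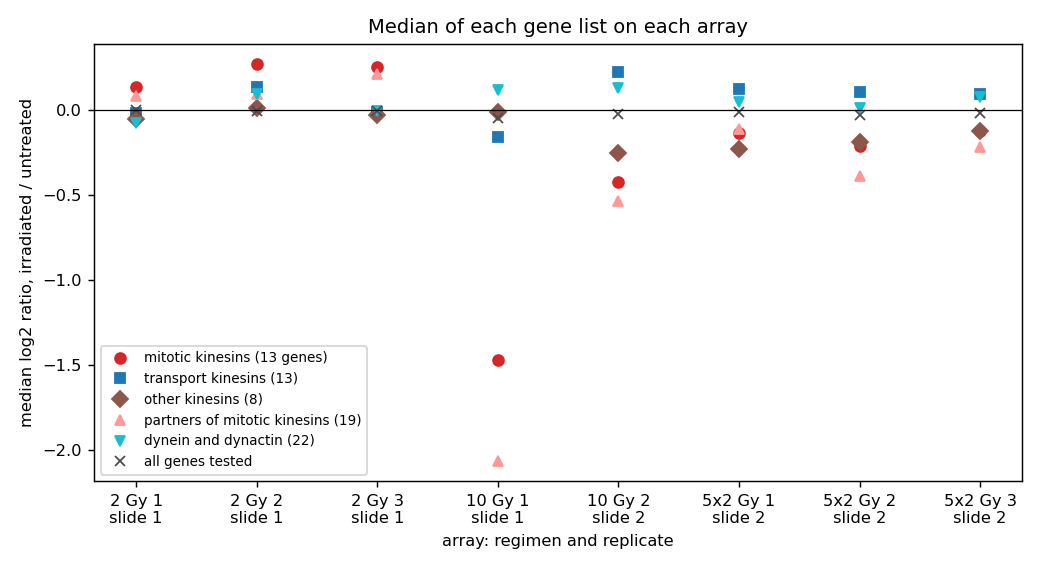
Median log2 ratio of irradiated over untreated signal (vertical axis) of 6 gene lists on each of the 8 arrays (horizontal axis, with the slide). The mitotic kinesins lie at -1.47 and -0.43 on the 10 Gy arrays while the median of all genes tested stays between -0.05 and -0.01 on all 8 arrays.

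Promoter sequences show what the mitotic members share beside their function. The RefSeq promoter table (build GRCm38.p6, 250 bases before to 50 after each annotated start) held 12 of the 13 mitotic kinesins tested, 9 of 13 transport kinesins with 10 promoters, and 7 of 8 other kinesins with 8 promoters. Motifs were searched on both strands by their letters: CCAAT, the box bound by NF-Y, TTTGAA and TTTAAA, the common forms of the cell cycle homology region, and the E2F-like TTTGGCGC, TTTCGCGC and TTTCCCGC. Matches of different motifs may share bases, and TTTAAA is its own reverse complement. TTTGAA was in 11 of 12 mitotic promoters (91.7%), none of 10 transport promoters and 1 of 8 other promoters, against 17.9% of all 32841 promoters of the table. In 9 of 12 mitotic promoters (75%) the leftmost base of a TTTGAA match lay within 30 bases of the start, a window chosen after the positions were seen, against 3.14% of all promoters.

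CCAAT was in 8 of 12 mitotic promoters (66.7%), 4 of 10 transport promoters and 2 of 8 other promoters, against 37.4% of all. At least 2 CCAAT boxes stood in 5 of 12 mitotic promoters (41.7%), against 11.7% of all. TTTAAA was in 2 of 12 mitotic promoters, against 13.2% of all. TTTGGCGC was in those of Kif15 and Kif18a, against 0.515% of all, and TTTCGCGC and TTTCCCGC were in none of the 12 (0.323% and 1.07% of all). A match of letters is a description and not a binding site. TTTGAA stood in the promoters of members that fell at 10 Gy (Kif11, Kif14, Kif15, Kif22, Kif2c and Kif4) and in those of all 3 that rose, and not in that of Kif18a, which fell.

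The promoters below are shown because their genes had the lowest and highest ratios at 10 Gy or because they hold TTTGGCGC or none of the motifs, with matches of the searched motifs in capitals, on either strand, and all other bases in lower case. Positions count from the annotated start, whose first transcribed base is 1. Kif22, Kif4 and Kif11 had the lowest 10 Gy means among the members with a promoter in the table. In Kif22 and Kif11 a TTTGAA (read on the other strand as TTCAAA) begins at -17 and -19, and a CCAAT box on that strand, printed as ATTGG, at -54 and -45. Kif4 holds TTTGAA after the start, at 20, and CCAAT boxes at -152 and, on the other strand, at -5.
Kif22, chr7:127042371-127042670, reverse strand: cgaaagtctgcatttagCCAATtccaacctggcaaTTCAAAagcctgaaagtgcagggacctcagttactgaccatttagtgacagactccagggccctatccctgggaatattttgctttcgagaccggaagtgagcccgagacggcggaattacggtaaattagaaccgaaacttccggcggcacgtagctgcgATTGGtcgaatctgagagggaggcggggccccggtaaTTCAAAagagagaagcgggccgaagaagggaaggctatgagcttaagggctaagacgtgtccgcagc
Kif4, chrX:100625815-100626114, forward strand: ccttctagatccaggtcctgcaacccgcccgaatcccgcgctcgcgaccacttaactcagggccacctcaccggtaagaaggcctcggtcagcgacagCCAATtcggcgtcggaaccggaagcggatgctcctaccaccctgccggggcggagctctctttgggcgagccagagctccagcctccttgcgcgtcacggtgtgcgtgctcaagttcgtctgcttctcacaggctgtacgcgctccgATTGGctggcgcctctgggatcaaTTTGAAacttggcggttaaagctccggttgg
Kif11, chr19:37376132-37376431, forward strand: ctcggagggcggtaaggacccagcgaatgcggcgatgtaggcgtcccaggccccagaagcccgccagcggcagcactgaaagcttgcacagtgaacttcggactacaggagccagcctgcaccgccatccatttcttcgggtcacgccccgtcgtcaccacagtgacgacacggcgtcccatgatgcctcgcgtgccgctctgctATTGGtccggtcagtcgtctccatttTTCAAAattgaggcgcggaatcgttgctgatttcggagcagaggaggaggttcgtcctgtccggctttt
Kif15 carries TTTGGCGC and TTTGAA on the reverse strand beside each other at -27 and -19, and Kif18a carries TTTGGCGC at -10 and no TTTGAA.
Kif15, chr9:122950831-122951130, forward strand: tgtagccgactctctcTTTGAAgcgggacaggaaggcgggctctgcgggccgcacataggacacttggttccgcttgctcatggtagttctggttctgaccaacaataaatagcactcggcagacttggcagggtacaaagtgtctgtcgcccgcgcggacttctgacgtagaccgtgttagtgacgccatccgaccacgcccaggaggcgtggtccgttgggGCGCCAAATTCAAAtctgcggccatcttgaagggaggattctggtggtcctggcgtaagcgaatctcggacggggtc
Kif18a, chr2:109280488-109280787, forward strand: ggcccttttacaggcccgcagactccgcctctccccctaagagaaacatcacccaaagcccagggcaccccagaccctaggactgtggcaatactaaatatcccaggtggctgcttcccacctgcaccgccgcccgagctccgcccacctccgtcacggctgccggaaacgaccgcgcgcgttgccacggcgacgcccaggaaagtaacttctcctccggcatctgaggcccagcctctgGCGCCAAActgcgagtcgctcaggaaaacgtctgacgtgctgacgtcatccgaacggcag
The 3 genes that rose hold TTTGAA just after the start, at 2 in Kifc1, at 30 in Kifc5b and at 4 in Kif18b, and at least 2 CCAAT boxes each.
Kifc1, chr17:33890584-33890883, reverse strand: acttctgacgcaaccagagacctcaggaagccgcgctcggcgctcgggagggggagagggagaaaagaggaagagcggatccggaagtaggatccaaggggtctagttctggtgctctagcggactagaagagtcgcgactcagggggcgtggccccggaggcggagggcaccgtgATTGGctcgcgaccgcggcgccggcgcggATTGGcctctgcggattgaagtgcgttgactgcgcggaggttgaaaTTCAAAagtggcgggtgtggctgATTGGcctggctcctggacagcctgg
Kifc5b, chr17:26916841-26917140, forward strand: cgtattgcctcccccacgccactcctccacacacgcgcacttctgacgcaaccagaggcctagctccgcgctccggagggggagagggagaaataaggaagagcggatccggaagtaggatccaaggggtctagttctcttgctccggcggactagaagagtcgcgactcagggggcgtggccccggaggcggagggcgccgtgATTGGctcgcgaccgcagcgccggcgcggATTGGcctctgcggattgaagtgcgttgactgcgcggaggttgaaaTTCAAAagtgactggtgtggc
Kif18b, chr11:102925075-102925374, reverse strand: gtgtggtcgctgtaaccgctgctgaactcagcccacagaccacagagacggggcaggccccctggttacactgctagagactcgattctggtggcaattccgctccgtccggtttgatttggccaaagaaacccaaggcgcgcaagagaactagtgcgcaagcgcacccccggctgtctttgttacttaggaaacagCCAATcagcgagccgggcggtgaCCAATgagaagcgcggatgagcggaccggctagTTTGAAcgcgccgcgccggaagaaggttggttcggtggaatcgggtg
Kif1c, a transport kinesin, is shown for contrast, since none of the searched motifs stands in its promoter.
Kif1c, chr11:70700298-70700597, forward strand: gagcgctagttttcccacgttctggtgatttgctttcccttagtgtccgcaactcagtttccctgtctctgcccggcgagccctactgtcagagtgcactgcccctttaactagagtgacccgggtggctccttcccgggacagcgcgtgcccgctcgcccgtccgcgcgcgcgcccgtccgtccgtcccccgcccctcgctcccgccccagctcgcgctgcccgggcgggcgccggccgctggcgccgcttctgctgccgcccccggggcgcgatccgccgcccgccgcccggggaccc

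A single dose of 2 Gy moved few kinesin transcripts. Of 13 mitotic kinesins 2 rose (8.99% of all genes tested rose and 7.93% fell), 1 of 13 transport kinesins rose, and no kinesin fell. The mitotic kinesins that rose were Kifc5b, by 0.51 ± 0.12 (SE; limma adjusted p = 0.0174), and Kif18b, by 0.47 ± 0.10 (SE; limma adjusted p = 0.0118). The median of the mitotic kinesins was 0.21, with 0.13, 0.27 and 0.25 on the 3 arrays. Kif18a, Kif11, Kif2c and Kifc1 were above 0 on all 3 arrays and were not called, with means of 0.21, 0.30, 0.27 and 0.35, where 31.4% of all genes tested were above 0 on these 3 arrays. The calls at 2 Gy depend on slide and on single arrays. Without any 1 of the 2 Gy arrays no mitotic kinesin was called, where 253 to 507 of all genes rose and 155 to 434 fell. With slide as a block 10 mitotic kinesins rose, where 2445 of all genes rose and 2019 fell. With slide as a random block no mitotic kinesin was called, where 9 of all genes rose and 12 fell. Centring arrays on their median in place of loess raised the median of all genes at 2 Gy to 0.13 and turned the split of calls over all genes from 1206 higher and 1064 lower to 2970 higher and 640 lower, and 3 mitotic kinesins then rose.

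After 5 fractions of 2 Gy, 3 of 13 mitotic kinesins fell and 2 rose, where 23.4% of all genes tested fell and 17.6% rose. The mitotic share of falls, 3 of 13, was thus near that of all genes. The members that fell were Kif18a at -0.58 ± 0.13 (SE; limma adjusted p = 0.00571), Kif14 at -0.53 ± 0.11 (SE; 0.00461) and Kif4 at -0.46 ± 0.16 (SE; 0.0469). The irradiated signals of Kif14 and Kif18a were above background on none of the 3 arrays, which leaves at least 1.04-fold lower for Kif18a and no fold for Kif14. The members that rose were Kifc5b, by 0.82 ± 0.12 (SE; limma adjusted p = 0.000829), and Kif18b, by 0.46 ± 0.10 (SE; 0.00486). Kif22, Kif11, Kif20a, Kif2c, Kif23, Kif15, Kif20b and Kifc1 did not pass, with means of -0.36, -0.01, -0.15, -0.07, 0.17, -0.20, -0.21 and 0.07. With slide as a block 9 mitotic kinesins fell and 2 rose, where 2830 of all genes tested fell and 2069 rose. With slide as a random block only 1 mitotic kinesin fell and none rose, where 458 of all genes tested fell and 359 rose.

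Transport kinesins had medians of 0.03, 0.02 and 0.11 at 2 Gy, 10 Gy and 5x2 Gy, and the few that were called did not move one way. Their median was -0.16 on replicate 1 of 10 Gy and 0.22 on replicate 2. Kif5b, the widely expressed heavy chain of conventional kinesin, had log2 ratios of -0.06, -0.28 and -0.19 at 2 Gy, -1.17 and -0.35 at 10 Gy, and -0.29, -0.92 and -0.63 at 5x2 Gy. It was below 0 on all 8 arrays, and it fell at 10 Gy by 0.76 ± 0.20 (SE; limma adjusted p = 0.0191) and at 5x2 Gy by 0.61 ± 0.16 (SE; limma adjusted p = 0.0141). Its other probe gave -0.91 in both regimens. Kif5c, the heavy chain best known from neurons, had 0.37, 0.29 and 0.48 at 2 Gy, 0.14 and -0.13 at 10 Gy, and 0.07, -0.03 and -0.11 at 5x2 Gy. It rose at 2 Gy only among the comparisons with untreated cells, by 0.38 ± 0.09 (SE; limma adjusted p = 0.0230), and the 2 Gy arrays were above all others. The differences of Kif5c from 2 Gy were not called (limma adjusted p = 0.187 for 10 Gy and 0.106 for 5x2 Gy).

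Of the 13 transport kinesins 2 rose and 2 fell at 5x2 Gy, where 17.6% of all genes tested rose and 23.4% fell. Called besides Kif5b were Kif16b and Kif3c, which rose, and Kifc2, which fell. Kif16b, which moves early endosomes, had 0.02, 0.07 and -0.03 at 2 Gy, -0.36 and 0.40 at 10 Gy, and 1.04, 0.27 and 0.33 at 5x2 Gy. Its rise of 0.55 ± 0.17 (SE; limma adjusted p = 0.0294) was carried most by replicate 1. Kif3c, a kinesin-2 subunit, had 0.13, 0.29 and -0.01 at 2 Gy, -0.55 and 0.37 at 10 Gy, and 0.51, 0.63 and 0.70 at 5x2 Gy. Its limma adjusted p at 5x2 Gy was 0.0111, but neither channel was above background on any of these 3 arrays, so no fold is given. Kifc2, a minus-end directed motor known from neurons, had -0.06, -0.16 and -0.11 at 2 Gy, -0.16 and -0.53 at 10 Gy, and -0.61, -0.57 and -0.16 at 5x2 Gy. It was below 0 on all 8 arrays with a limma adjusted p of 0.0128 at 5x2 Gy, and its irradiated signal there was not above background, so no fold is given for it either.

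The other 8 transport kinesins were not called in any comparison on their tested probes. The kinesin-2 subunits Kif3a and Kif3b, which build cilia, had 10 Gy means of 0.05 and 0.13, and their partner motor Kif17 had 0.11. The vesicle motors Kif1b and Kif1c had -0.12 and 0.41, and Kif13a and Kif13b had -0.02 and 0.05. Several of these means average 10 Gy arrays on opposite sides of 0. Kif3b had -0.25 and 0.50, Kif1b -0.45 and 0.22, Kif13a 0.17 and -0.22, and Kif13b -0.13 and 0.23. Kif3a had 0.03 and 0.07, Kif17 0.18 and 0.05, and Kif1c 0.61 and 0.22. Kif1c was above 0 on all 8 arrays, and the other 3 of its 4 probes above background were called higher at 10 Gy, at 0.59, 0.72 and 0.51, while the brightest probe had a limma adjusted p of 0.0573. Kifc3, a minus-end directed motor, had -0.18, -0.49 and -0.36 at 2 Gy, -0.21 and 0.85 at 10 Gy, and 0.74, 0.13 and 0.61 at 5x2 Gy; its 10 Gy arrays lay on opposite sides of 0, each nearer to the other arrays of its own slide. Removing either 10 Gy array moved the transport calls at 5x2 Gy from 2 rises and 2 falls to 6 rises and 3 falls, while the calls over all genes moved from 2355 higher and 3137 lower to 3621 and 4364, and with slide as a random block none of the 13 was called in any comparison with untreated cells.

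**Figure D4:**
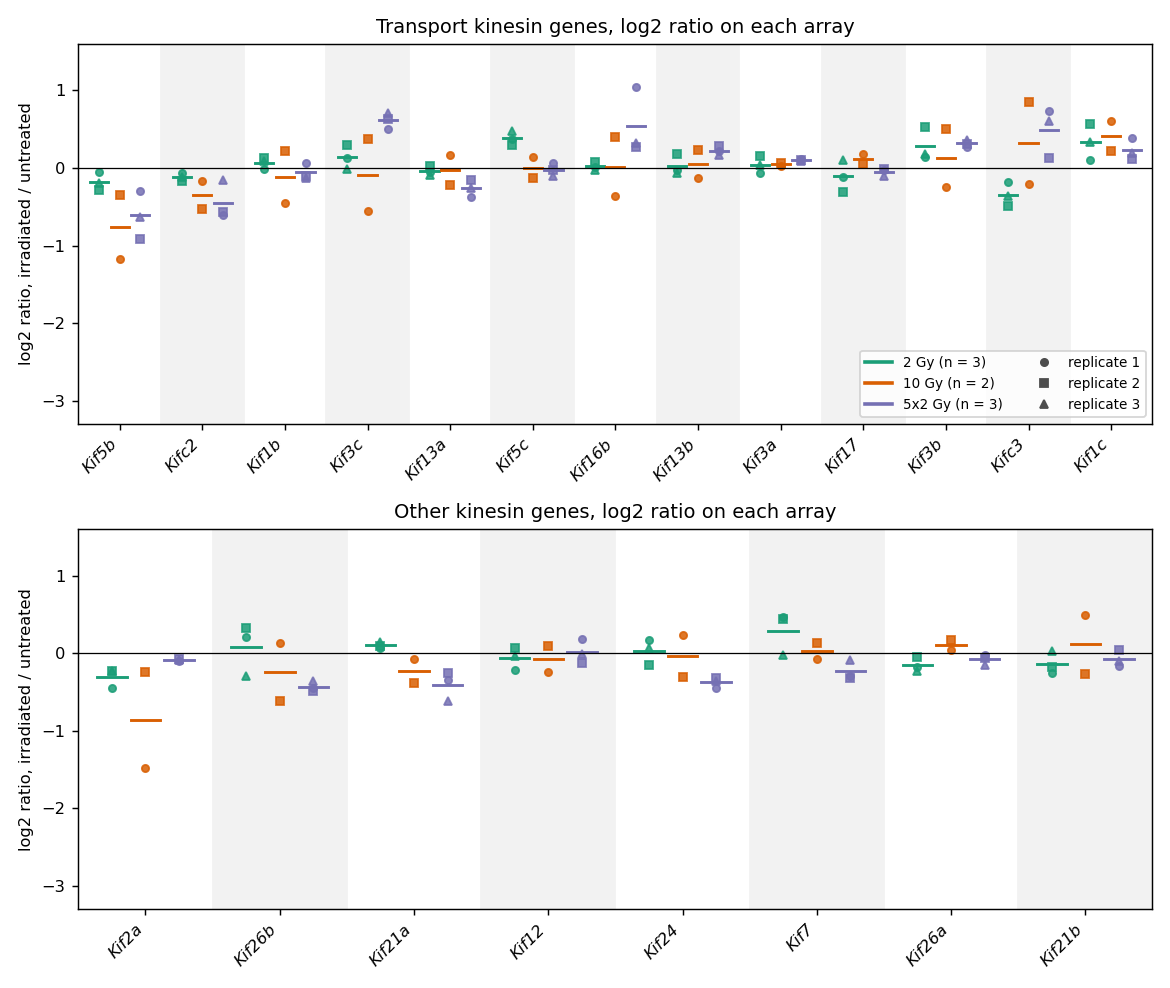
Log2 ratio of irradiated over untreated signal (vertical axis) for the 13 transport kinesins (upper panel) and the 8 other kinesins (lower panel), ordered by their 10 Gy mean, on one scale. Points are arrays, coloured by regimen and shaped by replicate number, and short lines are regimen means. Beside Kif5b and Kif2a, whose 10 Gy replicate 1 lies at -1.17 and -1.48, the 10 Gy points stay between -0.62 and 0.85.

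Among the other kinesins, Kif2a, a relative of Kif2c that takes microtubule ends apart in neurons and at spindle poles, had -0.45, -0.23 and -0.23 at 2 Gy, -1.48 and -0.24 at 10 Gy, and -0.10, -0.07 and -0.08 at 5x2 Gy. It fell at 10 Gy by 0.86 ± 0.23 (SE; limma adjusted p = 0.0198), a mean set by replicate 1, since replicate 2 lay within the range of the 2 Gy arrays. At 5x2 Gy 3 of 8 other kinesins fell and none rose, where 23.4% of all genes tested fell. With slide as a block 1 fell, and with it as a random block none, where 2830 and 458 of all genes tested fell. Without replicate 1, 2 or 3 of 5x2 Gy 1, 1 and 0 fell, where 1834, 1784 and 1763 of all genes did. Kif21a, which limits microtubule growth, had 0.06, 0.09 and 0.14 at 2 Gy, -0.07 and -0.39 at 10 Gy, and -0.34, -0.26 and -0.62 at 5x2 Gy (limma adjusted p = 0.0118 at 5x2 Gy). Kif24, which acts at centrioles, had 0.18, -0.15 and 0.06 at 2 Gy, 0.24 and -0.30 at 10 Gy, and -0.44, -0.32 and -0.36 at 5x2 Gy (limma adjusted p = 0.0289 at 5x2 Gy). Both were below all 2 Gy arrays on every 5x2 Gy array, as 25.9% of all genes tested were. Kif26b, a kinesin without motor activity, had 0.21, 0.32 and -0.30 at 2 Gy, 0.14 and -0.62 at 10 Gy, and -0.45, -0.48 and -0.36 at 5x2 Gy (limma adjusted p = 0.0489 at 5x2 Gy). At 5x2 Gy the irradiated signal of Kif21a was not above background on any array and neither channel was for Kif26b, so no fold is given for these. Kif7, which regulates Hedgehog signalling at the tip of cilia, and Kif12, Kif21b and Kif26a were not called in any comparison on their tested probes. Their 10 Gy means were 0.03, -0.07, 0.11 and 0.11. On the 10 Gy arrays Kif7 had -0.07 and 0.13, Kif12 -0.24 and 0.10, and Kif21b 0.50 and -0.27, each on opposite sides of 0. Kif26a had 0.05 and 0.18.

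Single 10 Gy was next compared with single 2 Gy, which asks whether the larger dose moved the motors further. Of the 13 mitotic kinesins 4 were lower at 10 Gy and none higher, where 1.52% of all genes tested were lower and 1.04% higher, and no transport or other kinesin was called. Kif20a was lower by 1.47 ± 0.27 on the log2 scale (SE; limma adjusted p = 0.0334) and Kif4 by 1.29 ± 0.26 (SE; 0.0406). Kif18a had a limma adjusted p of 0.0225 and Kif14 of 0.0466. With their 10 Gy signal at the bound, these 2 were at least 1.82-fold and 1.35-fold lower than at 2 Gy. Kif22, Kif11 and Kif2c differed by -1.89 ± 0.52, -1.63 ± 0.45 and -1.35 ± 0.30 (SE) and were not called (limma adjusted p = 0.0892, 0.0892 and 0.0505). The regimens did not overlap for 11 of 13 mitotic kinesins, with 10 Gy lower for 9 and higher for 2, against 18.2% and 14% of all genes tested.

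The 4 calls depended on the arrays used. Without any 1 of the 2 Gy arrays no mitotic kinesin was called, and the calls over all 13411 genes fell to 0. Without any 1 of the 5x2 Gy arrays no mitotic kinesin was called, with 1 gene higher and 3 or 4 lower over all genes. With the 5 arrays of both regimens fitted alone no gene of all tested was called. Without 10 Gy replicate 1 the median difference of the mitotic kinesins was -0.61, and without replicate 2 it was -1.68. With slide as a block, which rests the comparison on slide 1, 9 mitotic kinesins were lower and 2 higher with a median difference of -1.68. Over all genes 2682 were then lower and 1620 higher. Within slide 1, 10 Gy replicate 1 lay below all 2 Gy arrays for 10 mitotic kinesins and above them for 3, where 42.2% of all genes tested lay below and 35.1% above. Median centring gave 103 genes higher and 391 lower over all genes, against 139 and 204 with loess, and 5 mitotic kinesins lower.

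A course of 5 fractions of 2 Gy and a single 10 Gy carry the same total dose, and their comparison gave no call in any of the 13411 genes tested (0% higher and 0% lower by limma). At an unadjusted p under 0.05, 8 of 13 mitotic kinesins passed, against 16.7% of all genes tested, and no other tool was run. The widest differences, 5x2 Gy minus 10 Gy, were 1.50 for Kif22 (95% interval 0.33 to 2.67), 1.36 for Kif20a (0.77 to 1.96), 1.33 for Kif11 (0.31 to 2.34), 1.05 for Kif23 (0.17 to 1.94) and 1.01 for Kif2c (0.34 to 1.69). In the other direction Kifc1 differed most, by -0.80 (-1.23 to -0.37). The limma adjusted p of these 6 genes ranged from 0.172 for Kif20a to 0.255 for Kif23, and a p above the threshold does not show that the regimens act alike. Without 10 Gy replicate 2 the median difference of the 13 mitotic kinesins was 0.93, and without replicate 1 it was 0.22. On slide 2 alone, 10 Gy replicate 2 lay below all 5x2 Gy arrays for 8 mitotic kinesins, above them for 2 and among them for 3, with a median difference of 0.22, where 29.8% of all genes tested lay below and 31.4% above.

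Between 5x2 Gy and 2 Gy no kinesin was called either, where 0.925% of all genes tested were lower at 5x2 Gy and 0.38% higher. The lowest adjusted p among kinesins was that of Kif18a, at -0.79 ± 0.18 (SE; limma adjusted p = 0.0591), followed by Kif14 at -0.60 ± 0.15 (SE; 0.0682). The 2 regimens lie on different slides. With slide as a block, which links the regimens through the 10 Gy arrays, 8 mitotic kinesins were lower. Over all genes 1550 were then lower and 821 higher. Median centring moved the median of all genes in this comparison to -0.13 and the calls from 51 higher and 124 lower to 53 and 696, with 2 mitotic kinesins lower.

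Probes of one gene did not always agree. Of the 34 genes, 14 had more than 1 probe above background, and the brightest was the one tested. Their probes had means of one sign in 11 genes at 2 Gy, 10 at 10 Gy and 7 at 5x2 Gy. For Kif20a the other probe had 0.20, 0.70 and 0.66 at 2 Gy, -1.25 and 0.25 at 10 Gy, and 0.84, 0.76 and 0.82 at 5x2 Gy. On it the 5x2 Gy mean of 0.81 was called higher (limma over all probes, adjusted p = 0.0172) and the 10 Gy mean of -0.50 was not called (0.204), so the fall of Kif20a holds for 1 of its 2 probes. The other probe of Kif4 had a 10 Gy mean of -0.62 (limma adjusted p = 0.0182) and a 5x2 Gy mean of 0.24, against -0.46 for the brightest. For Kif23 the other probe was called lower at 10 Gy, at -1.11 (limma adjusted p = 0.00298), and at 5x2 Gy, at -0.47 (0.0332). The other probe of Kifc3 was called lower at 5x2 Gy, at -0.47 (limma adjusted p = 0.00464), where the brightest had 0.49. That of Kif21b was called higher at 2 Gy, at 0.42 (limma adjusted p = 0.0159), and lower at 5x2 Gy, at -0.32 (0.02). That of Kif3b was called higher at 5x2 Gy, at 0.47 (limma adjusted p = 0.00509). A further probe of Kif1c was called higher at 2 Gy, at 0.56 (limma adjusted p = 0.0213), and another at 5x2 Gy, at 0.42 (0.00627). Kif2a, with -0.51 on its other probe (limma adjusted p = 0.0466), fell on both probes at 10 Gy. The fall of Kif21a at 5x2 Gy holds for 1 of its 2 probes, since the other had a mean of 0.04 (limma adjusted p = 0.848). Of the tested probes, that of Kif20a had 3 flagged spots and those of Kif5b and Kifc1 had 1 each, and the meaning of the flags is not given in the sources used here.

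**Figure D5:**
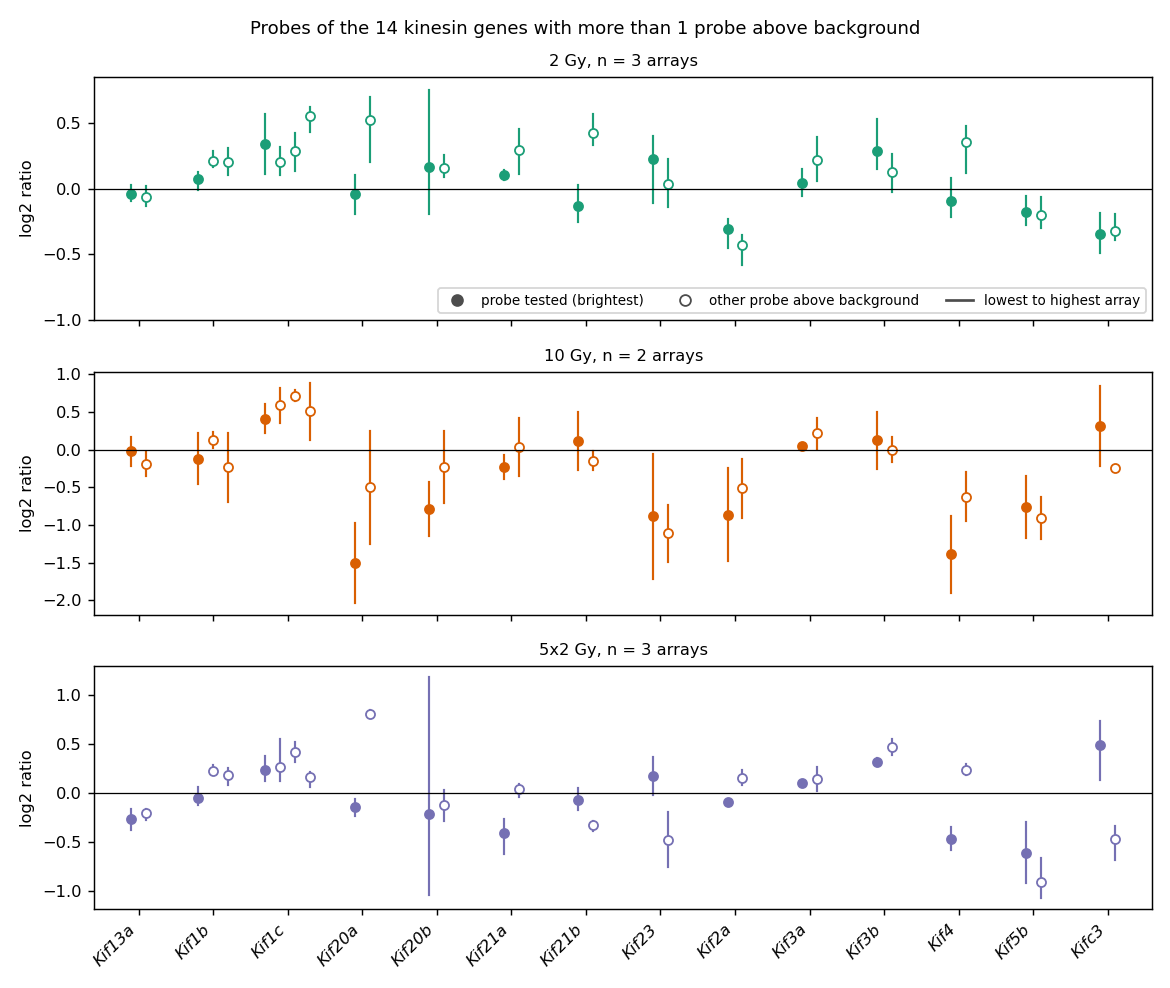
Mean log2 ratio of irradiated over untreated signal (vertical axes) for each probe above background of the 14 kinesin genes with more than 1, at 2 Gy, 10 Gy and 5x2 Gy (panels from top to bottom, with their own scales). Filled points are the probe tested, open points are other probes, and lines run from the lowest to the highest array. The probes of Kif5b, Kif2a and Kif23 lie below 0 together at 10 Gy, and those of Kif20a lie on both sides of 0 at 5x2 Gy, at -0.15 and 0.81.

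Proteins that work with the mitotic kinesins were read from a list of 19 genes, all of which were tested. The list includes Cenpe, itself a mitotic kinesin whose symbol the Kif pattern does not match, with a 10 Gy mean of -1.76. At 10 Gy 18 of 19 fell and 1 rose, where 15.8% of all genes tested fell and 12.4% rose, with a median of -1.28 (arrays -2.07 and -0.54). At 2 Gy 2 of 19 rose and none fell, with a median of 0.14, where 8.99% of all genes tested rose and 7.93% fell. At 5x2 Gy 3 of 19 fell and none rose, with a median of -0.29, where 23.4% of all genes tested fell. The 4 with the smallest p at 10 Gy were Nusap1, which bundles spindle microtubules, at -1.33 ± 0.21, citron kinase Cit, the midbody partner of Kif14, at -0.76 ± 0.12, the checkpoint kinase Bub1 at -1.44 ± 0.24, and Birc5, the survivin subunit of the chromosomal passenger complex, at -1.56 ± 0.29 (SE; limma adjusted p from 0.00186 to 0.00444). Cit, like Kif14, was close on both 10 Gy arrays, at -0.83 and -0.69. The one that rose was Gtse1, a microtubule binding protein, at 1.78 and 0.39.

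Light chains and cargo adaptors of the transport kinesins (19 tested) were mixed, with 3 higher and 4 lower at 10 Gy, 1 higher and none lower at 2 Gy, and 7 higher and 5 lower at 5x2 Gy. Of all genes tested 12.4% rose and 15.8% fell at 10 Gy, 8.99% and 7.93% at 2 Gy, and 17.6% and 23.4% at 5x2 Gy. The adaptor counts at 10 Gy and for falls at 5x2 Gy were near those shares. The smallest p at 10 Gy belonged to Arl8a, a lysosomal GTPase that recruits kinesin-1, at 1.40 ± 0.27, its link protein Plekhm2 at 0.73 ± 0.14, and the JNK scaffolds Spag9 at -0.78 ± 0.18 and Mapk8ip3 at -0.46 ± 0.12 (SE). Arl8a and Plekhm2 thus rose and the scaffolds fell. Of 22 dynein and dynactin genes, the minus-end directed counterpart of kinesin, 4 rose and 2 fell at 10 Gy, against the same 12.4% and 15.8% of all genes. Pafah1b1, a dynein regulator, was at -0.92 ± 0.12, Dctn4 at 0.64 ± 0.11, Dctn3 at 0.53 ± 0.14 and the light chain Dynll1 at 0.85 ± 0.22 (SE). Pafah1b1 was below 0 on all 8 arrays, from -1.27 to -0.35.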

How the data were processed

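Scanner intensity values of 8 arrays of 45220 spots were deposited as tab-separated tables, and the foreground mean of each channel was read from them per the file headers. The authors' log2 ratios in the deposited series table matched loess ratios computed without background correction at correlations of 0.998 to 1.000, which gave their scale and direction. In limma 3.58.1 (R 4.3.3), signals were corrected with normexp (offset 50) and normalized by loess within each array, control spots were given weight 0 and then dropped, and spots of a probe were averaged (41174 probes). A probe was kept when it exceeded the median of 153 negative controls by 2.6 robust SDs in either channel on 2 or more arrays, which 34.75% to 49.06% of probes did per channel and array. The brightest of the kept probes of each symbol, updated through RefSeq accessions, stood for its gene (13411 genes). One mean per regimen was fitted over all 8 arrays with lmFit and eBayes, with Benjamini-Hochberg adjustment of p-values over all genes and calls at an adjusted p under 0.05. The image analysis software, the genome build of the probes and the meaning of spot flags are not given in the sources used here. Precision is limited by the number of arrays. The fit was tested on simulated data.

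The members, their roles and the gene lists were chosen with earlier results of these data known. Every tested kinesin was named with a value, and array values were given for mitotic kinesins and for others called in at least 1 comparison. Kifc3 and the 10 Gy array values of the remaining kinesins were added after they were seen. Up to 4 genes each were named from the partner, adaptor and dynein lists by the smallest p at 10 Gy, with Gtse1 added after its values were seen. Alternatives were the background correction, the normalization, the deposited ratios, the filter, the mean of probes, slide as a block or random block, the replicate number as a block, separate fits and leaving out each array.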

Additional observations from a re-analysis of the deposited data

Results flagged for a closer look

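In 4 mitotic kinesins the effect of irradiation differed between single 10 Gy and single 2 Gy by the test of the difference itself (limma over all genes). The difference in mean log2 ratio, 10 Gy minus 2 Gy, was -1.467 for Kif20a (adjusted p = 0.0334), -1.318 for Kif18a (adjusted p = 0.0225), -1.295 for Kif4 (adjusted p = 0.0406) and -0.7873 for Kif14 (adjusted p = 0.0466). Of all genes tested 1.52% were called lower in this comparison and 1.04% higher. Both 10 Gy arrays were below all 3 arrays of 2 Gy in each of these 4 genes, as in 18.2% of all genes tested. That adds no support, since the 4 were picked by the same comparison. All 2 Gy arrays were on slide 1, and replicate 2 of 10 Gy was on slide 2. The other probe of Kif20a was not called at 10 Gy against untreated cells, with a mean of -0.50. For Kif18a and Kif14 the irradiated 10 Gy signal was not above background, so the measured differences rest on dim spots. These calls were kept under 8 (Kif20a) or 9 (the other 3) of 17 other settings. Leaving out any 1 of the 2 Gy arrays, which lost them, called 0 of all genes tested in this comparison.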

How the results depend on the processing

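The number of mitotic kinesins called at 10 Gy against untreated cells, 11 of 13, stayed within 1.5 times under each alternative except the fit of the 10 Gy arrays alone, which called 3. Slide as a block, which links the slides only through the 2 arrays of 10 Gy, called 10 mitotic kinesins at 2 Gy, 11 at 5x2 Gy, 11 for 10 Gy against 2 Gy and 8 for 5x2 Gy against 2 Gy, and slide as a random block (correlation 0.697) called 0, 1, 11 and 4. Fits of the compared arrays alone called 5 at 2 Gy, 0 for 10 Gy against 2 Gy and 5 for 5x2 Gy against 2 Gy, where median centring called 2. Over all genes these separate fits called 2432 higher and 2387 lower at 2 Gy and 3643 and 4392 at 5x2 Gy. They called 0 genes for 10 Gy against 2 Gy, and 1629 higher and 2383 lower for 5x2 Gy against 2 Gy. Transport calls with slide as a block were 3 at 2 Gy, 3 at 10 Gy, 4 for 10 Gy against 2 Gy and 2 for 5x2 Gy against 2 Gy. As a random block it gave 0 in each comparison with untreated cells and 1 for 10 Gy against 2 Gy. Fitted alone, transport calls were 4 at 2 Gy, 0 at 10 Gy, 9 at 5x2 Gy and 5 for 5x2 Gy against 2 Gy. Median centring and the mean of probes each called 2 transport kinesins at 2 Gy and 2 at 10 Gy, as did no background correction and the deposited ratios at 10 Gy.

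The median of mitotic kinesins at 2 Gy was 0.40 with median centring, 0.52 with slide as a block and 0.41 with it as a random block, and at 5x2 Gy it was -0.069, -0.66 and -0.51. The transport median at 2 Gy was 0.21 and 0.16 with slide as a block and random block, and at 5x2 Gy 0.13 with median centring, 0.084 with no filter, 0.019 with slide as a block and 0.072 as a random block. With slide as a block the sign turned for Kif20a at 2 Gy (0.49), Kif4 at 2 Gy (0.41), Kif23 at 5x2 Gy (-0.66) and Kif2a for 5x2 Gy against 2 Gy (-1.02). In that fit the slides are linked only through the regimen with an array on each slide. The gap between its arrays therefore sets the shift of the other regimens' means, and with it these turns of sign. What caused that gap or the other shifts of medians was not tested.

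Leaving out 1 array at a time, mitotic calls ranged from 0 to 6 at 2 Gy, 9 to 12 at 10 Gy, 4 to 6 at 5x2 Gy, 0 to 11 for 10 Gy against 2 Gy, 0 to 9 for 5x2 Gy against 10 Gy and 0 to 5 for 5x2 Gy against 2 Gy. Transport calls ranged from 0 to 4, 1 to 4, 1 to 9, 0 to 4, 0 to 6 and 0 to 5 in the same order. The upper end of each range above came from a fit without 1 of the 10 Gy arrays, which leaves that regimen 1 array. In these fits and comparisons more of all genes tested were called than in the main fit. The upper ends therefore do not single out kinesins. Mitotic medians ranged from 0.18 to 0.24 at 2 Gy, -1.47 to -0.43 at 10 Gy and -0.18 to -0.068 at 5x2 Gy, and transport medians from -0.0051 to 0.053, -0.16 to 0.22 and 0.098 to 0.11.

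Deviations of arrays of one replicate number from their regimen means correlated at -0.243 to 0.114 over all genes. Deviations within a regimen sum to 0, and those of the 2 arrays of 10 Gy mirror each other. These correlations therefore cannot decide whether the numbers pair the samples, and the labels state no pairing. The replicate block called 0 of all genes for 10 Gy against 2 Gy, and so 0 mitotic kinesins. It called 0 transport kinesins at 2 Gy and at 10 Gy, where 789 and 1033 of all genes were higher and 629 and 1241 lower. The dim probes of Kif14, Kif18a and Kif20b limit their 10 Gy values to bounds. The means of Kif11 and Kif2c at 10 Gy rest in part on an irradiated signal not above background on 1 of 2 arrays.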
